A study of Rattus norvegicus with 8 samples.

Results

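The cytosolic ribosomal protein genes encode the proteins of the ribosome that translates nuclear mRNAs in the cytoplasm. They were followed here by RNA sequencing in cultures of rat OPCs (oligodendrocyte precursor cells). These are proliferating glia that can mature into the oligodendrocytes that wrap axons in myelin. Genes were taken by symbol from the authors' table of FPKM, a level scaled by the transcript's length and a measure of library size. A gene was a member if its symbol was Rpl or Rps followed by a number, with at most 1 letter and 1 further digit after it, or was Rplp0, Rplp1, Rplp2 or Rpsa. The pattern also takes relatives whose symbols end in l and a digit. It found 97 of 32883 rows, which carry 86 symbols. Of these rows 61 belong to the large (60S) subunit and 36 to the small (40S) subunit. Of the symbols, 9 stand on more than 1 row each, together 20 rows, and such rows are told apart by their gene identifiers.

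The study compared OPC cultures from male and from female Sprague Dawley rats, with 4 libraries of each sex. The labels name no treatment and no genotype. All cultures were started from the cerebral cortex of rats 1 to 2 days old and grown as mixed glia in DMEM with 20% serum. Cells that did not adhere were moved to poly-DL-ornithine-coated plates and kept 4 to 5 days in Neurobasal medium with 2 mM glutamine, 2% B27 and the growth factors PDGF and FGF at 10 ng/ml each. Separate animals or litters behind the 4 libraries of a sex are stated nowhere, so the p-values reflect spread among these libraries alone, and that spread may be technical. OPC markers were present in all 8 libraries, at a summed 2015 to 2570 FPKM.

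A eukaryotic ribosome holds nearly all of its proteins in 1 copy, so cells make the proteins of both subunits in matched amounts, and unassembled ones are degraded. The P stalk of the large subunit (Rplp0, Rplp1, Rplp2 and Rpl12) recruits elongation factors. Rpl5 and Rpl11 bind 5S rRNA and, when ribosome assembly fails, the p53 regulator Mdm2. Most ribosomal protein mRNAs begin with a C and a run of pyrimidines, the 5′ terminal oligopyrimidine (TOP) motif, through which mTOR signalling controls their translation.

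The pyrimidine run can be read at the annotated starts of these genes. RefSeq promoter sequences of assembly GRCr8 were matched for 65 of the 86 symbols, with 66 entries. The longest uninterrupted run of C or T within 25 bases either side of the annotated start had a median of 10 bases in the members' entries and of 5 bases in all 33469 entries of the table. A run of at least 8 bases was found in 72.7% of the members' entries and in 19.4% of all. The letters CTTTC were found on the coding strand in 47.0% of the members' entries and 6.39% of all. On the opposite strand they were found in 3.03% and 6.45%. CTTTC lies inside many of the pyrimidine runs, so the 2 measures overlap. Windows of 30 bases are shown, 5′ to 3′, for the abundant genes Rps2, Rpl19 and Rpsa, for 2 members with small p in the comparison of the sexes, and for 2 pairs of a ribosomal protein and its relative. Capitals mark the longest run.
Rps2 (chr10:14251819-14251848, plus strand): ttccgcagcgCCTCCCTCTTCTTTTTCTTC
Rpl19 (chr10:83519052-83519081, plus strand): gaccagcaagCTCTTTCCTTTCgctgctgc
Rpsa (chr8:128728853-128728882, plus strand): cggccgcccgTCCTTTCCgcgctaccctgg
Rpl17 (chr18:70856262-70856291, plus strand): agccttcgcgCTTCCTCTTCCTgttagcgg
Rpl13a (chr1:104748909-104748938, minus strand): tgcgccaagaCCTCTTCCTTTCCTaggcgg
Rps27 (chr2:177964589-177964618, minus strand): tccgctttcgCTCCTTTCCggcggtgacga
Rps27l (chr8:76443627-76443656, plus strand): ttagtattgaTTTatagtttattcatttgt
Rpl22 (chr5:168117944-168117973, plus strand): gcgtagtgcgCCCCCCTCCCTTTCTgcctc
Rpl22l1 (chr2:113683172-113683201, plus strand): ttgctgagcgCTCCgtggatatccggttcc
The entries of Rps27 and Rpl22 hold runs that those of Rps27l and Rpl22l1 lack. Rpl5l1 (5 bases, Rpl5 11) and Rpl22l2 (3 bases, Rpl22 15) also had the shorter run. The reverse held for Rpl3l (9 bases, Rpl3 5) and Rps4y2 (8 bases, Rps4x 7). The standard members shown all hold a run of at least 8 bases, which is not so for every abundant member. Such a run was found in 41 of 54 entries of members with a row at 100 FPKM or more. The longest run was 3 bases in Rpl41 and Rps12 and 4 bases in Rpl11. Over the 8 matched entries of relatives and copies the median longest run was 4.5 bases, 2 held a run of at least 8 and 0 held CTTTC. A match describes the letters in the window and not a start site used in these cells.

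Depth in reads is unknown, because the table holds FPKM only. The steps between low values gave depths relative to male 1 of 0.303 to 1, with male 1 and female 3 deepest and female 1 shallowest. Between 12709 and 14014 genes were above 0 per library. The 13 mitochondrially encoded genes took 19.9 ± 0.617% of the FPKM sum in male and 26.0 ± 1.91% in female libraries (SD, n = 4). Microglia markers summed to 40.4 to 58.8 FPKM in male and 160 to 198 FPKM in female libraries, with 10 of 12 listed markers at a mean of 1 FPKM or more. OPC markers summed to 2015 to 2149 FPKM in male and 2402 to 2570 FPKM in female libraries. All 7 tested OPC markers were higher in female cultures, and 3 were called (42.9%, background 2.89% of tested genes). Neuron markers (320 to 446 FPKM) and astrocyte markers (194 to 217 FPKM) overlapped between the sexes in their sums. Of 11 tested neuron markers 4 were called higher in male cultures (36.4%, background 3.14% of tested genes) and 0 in female ones. The difference was toward male cultures in 6 of the 11 and toward female cultures in 5. Among the 4 called was Gad1, the enzyme that makes the transmitter GABA. It was at 16.6 to 20.6 FPKM in male and 2.66 to 5.35 FPKM in female libraries. The vascular and fibroblast markers Cldn5, Col3a1 and Dcn were listed at 0. In bulk RNA, fewer cells of a type and less RNA per cell cannot be told apart.

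Ribosomal protein genes were among the most abundant transcripts. Of the 97 rows, 79 averaged at least 1 FPKM and were tested, and 68 had a mean of at least 100 FPKM. They made up 46 of the 100 highest rows of the table and 33 of the 77 rows at 1000 FPKM or more. The tested rows of the large subunit had a median of 820 FPKM and those of the small subunit 1006 FPKM, against 12.9 FPKM for all tested genes. Among the 68 abundant rows the highest mean was 19.5 times the lowest.

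The highest member was Rps2, a small subunit protein near the mRNA entry channel, with 2759, 2388, 2380 and 2271 FPKM in the male libraries (1 to 4 in order, here and below) and 2347, 2494, 2855 and 2508 FPKM in the female libraries. Rpl41, the smallest ribosomal protein, lay at 2588, 2304, 2265 and 2215 FPKM in the male and 2097, 2265, 2571 and 2302 FPKM in the female libraries. Rpsa, the laminin receptor homologue that helps form the mRNA exit region of the small subunit, lay at 2529, 2234, 2179 and 2054 FPKM and at 2153, 2269, 2408 and 2136 FPKM. In each of these 3 genes male 1 was the highest male and female 3 the highest female library, and the sexes overlapped. Rpl21 (mean 2271 FPKM) and the P stalk base Rplp0 (2183 FPKM) followed. The range of any of these 5 genes over libraries was wider than the steps between neighbours in this order.

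Not every ribosomal protein gene was visible. Of the 72 symbols of standard ribosomal proteins that the pattern found, 66 had a row at 100 FPKM or more. The other 6 were Rpl35a and Rps6, listed at 0 in all libraries, and Rpl7a (0.240 FPKM), Rpl8 (0.311 FPKM), Rplp2 (2.21 FPKM) and Rps19 (2.28 FPKM), each by its highest row. These genes encode parts of every ribosome, so a value at or near 0 may be a failed estimate and is given only as listed. No row carried the symbols Rpl37, Rpl38, Rps9, Rps13 or Rps26, which would also fit the pattern. In all, 18 rows lay under 1 FPKM, 7 of them at 0 in every library. They were 14 large and 4 small subunit rows. Besides the rows named above these were further rows of Rps2, Rps19, Rpl7a, Rpl13a and Rpl21, and the relatives Rpl10l, Rpl22l2, Rpl30l1, Rpl31l3, Rps19l1 and Rpl3l, the muscle form of Rpl3. Their means reached 0.800 FPKM (Rpl10l). Ribosomal protein genes have many near-identical processed copies, and it is not given in the sources used here how reads were shared among them, so the level of any row with a copy is uncertain.

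**Figure D1:**
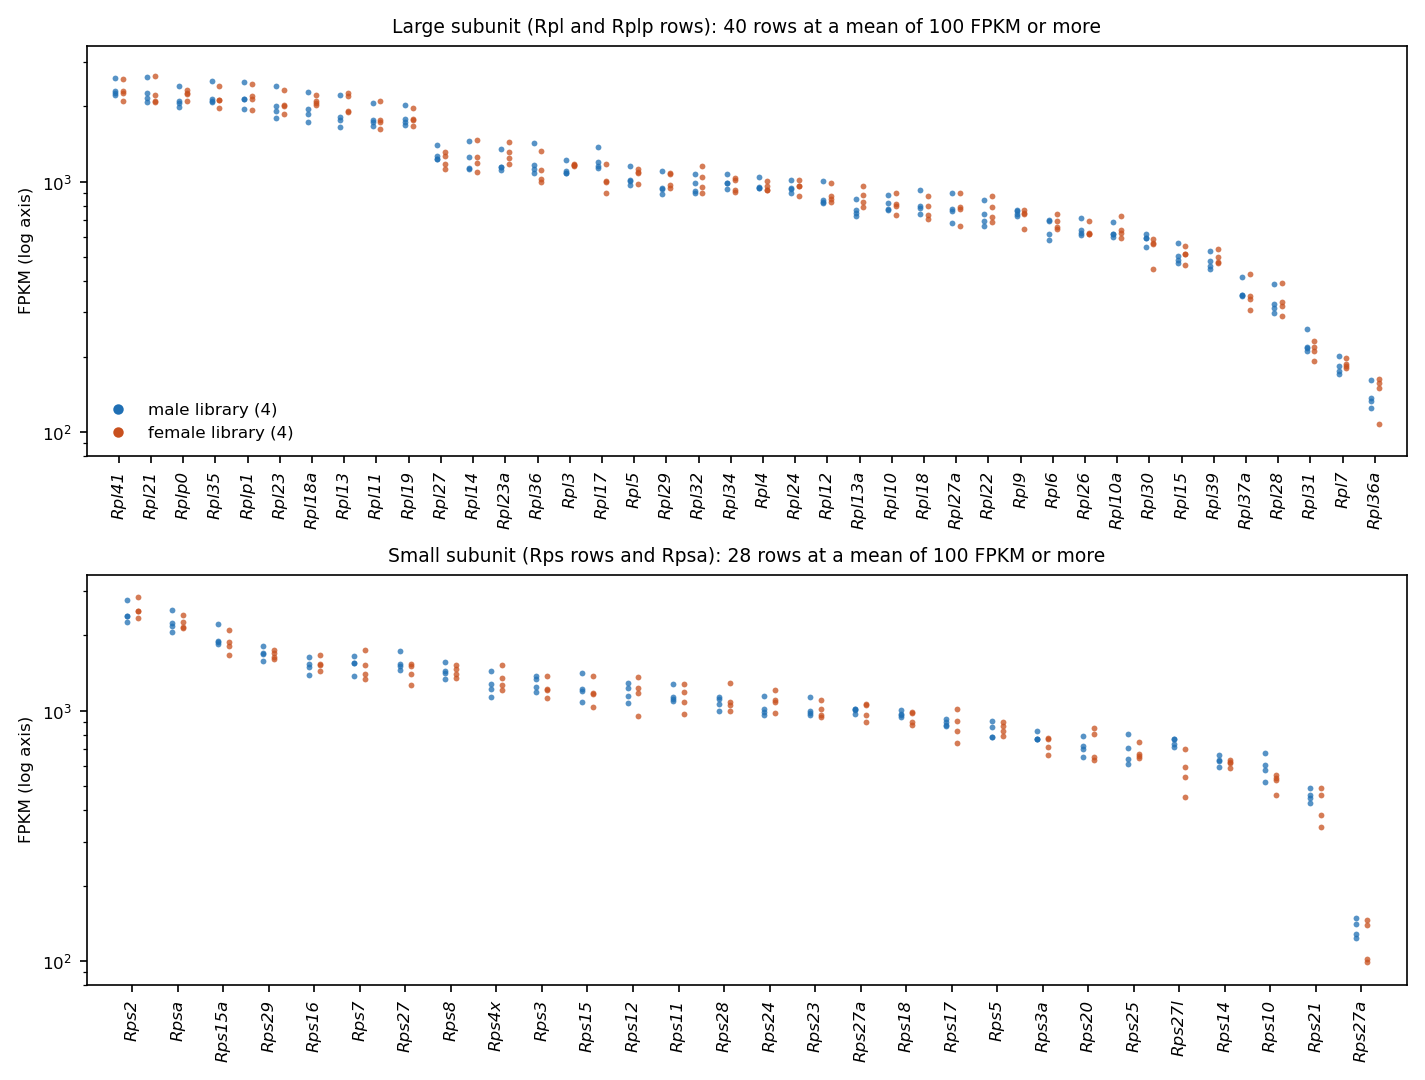
FPKM (log axis) of the 40 large subunit rows (top) and 28 small subunit rows (bottom) at a mean of 100 FPKM or more, ordered by mean, with 1 point per library and 4 libraries of each sex. Points of both sexes are interleaved in nearly every gene, Rps27l stands apart with all male above all female points, and 2 rows carry the symbol Rps27a.

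The mRNA levels of the genes of the 2 subunits stood in a nearly fixed proportion. Summed over members, large subunit FPKM was 1.39 times small subunit FPKM on average, with a range of 1.35 to 1.44 over the 8 libraries and a coefficient of variation of 2.42%. The sums themselves varied by 7.40% for the large and 6.89% for the small subunit. The ratio of sums was 1.37 ± 0.0293 in male and 1.41 ± 0.0313 in female libraries (SD, n = 4), and the ranges overlapped. The ratio of the median tested large row to the median tested small row was 0.828 ± 0.0301 in male and 0.865 ± 0.0158 in female libraries, with a mean of 0.846. It lies under 1 while the ratio of sums lies above it, since more large than small subunit genes are summed. Without the rows of relatives, a choice made after the data were seen, the ratio of medians was 0.890. In that set the male mean (0.907) was above the female mean (0.873), the reverse of the order over all members.

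As a share of all FPKM, the members made up 12.1, 11.1, 11.1 and 11.1% in male 1 to male 4 and 10.4, 11.0, 10.8 and 10.6% in female 1 to female 4. All male shares lay above all female shares, by a narrow margin (lowest male 11.06%, highest female 10.99%). The large subunit share was 6.58 ± 0.339% in male and 6.26 ± 0.111% in female libraries, and 6.41% in male ones without male 1, which reduced the difference from 0.32 to 0.15 percentage points. The small subunit share was 4.78 ± 0.149% and 4.44 ± 0.170%. These shares depend on what else is in the sum. Over the sum without the mitochondrially encoded genes, of which 12 of 13 were higher in female cultures (limma-trend, background 2.89% of tested genes), the members made up 14.2 ± 0.560% in male and 14.5 ± 0.566% in female libraries. On that scale the sexes overlapped and the order of the means was turned, with differences of -0.26 percentage points for the large and -0.040 for the small subunit.

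**Figure D2:**
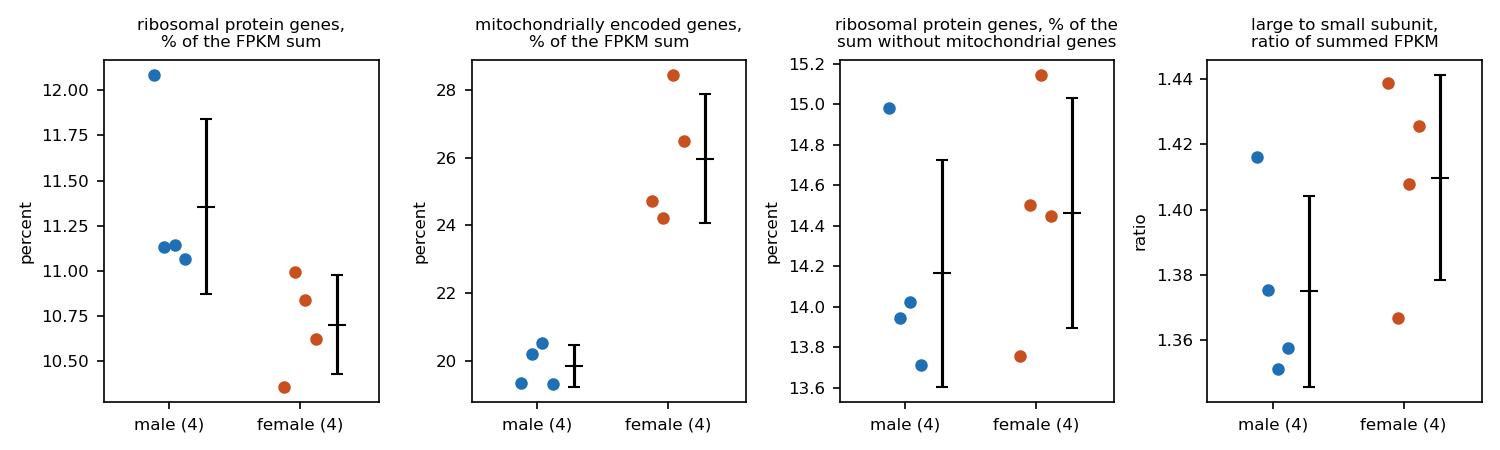
From left to right, percent of summed FPKM taken by ribosomal protein genes and by mitochondrially encoded genes, percent taken by ribosomal protein genes without the latter in the sum, and the ratio of summed large to small subunit FPKM, in 4 male and 4 female libraries (axes do not start at 0), with 1 point per library and bars for the mean ± SD. Male shares lie above female ones (11.4 against 10.7% on average) only while mitochondrially encoded genes are in the sum.

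The members moved together from culture to culture. For the 68 abundant rows, each library was set against the mean of its own sex on the log2(FPKM + 1) scale. Male 1 lay above the male mean in 67 of 68 rows, by a median of 0.15, and female 3 above the female mean in 65, by 0.14. Female 1 lay above it in 1 row only, with a median of -0.13, and male 4 in 7, with -0.091. The other libraries had medians from -0.035 to 0.015. The 885 other genes at 100 FPKM or more deviated the same way by less, with medians of 0.077 in male 1, 0.078 in female 3, -0.060 in female 1 and -0.034 in male 4. Male 1 was the highest male library in 62 rows, female 3 the highest female one in 56, and female 1 the lowest in 56.

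The 2 libraries with the highest member levels were the 2 deepest, at relative depths of 1 and 0.981, and the lowest was the shallowest, at 0.303. Female 2, at 0.366, had a median deviation of 0.015. Rescaling libraries by median ratios left the deviations nearly as they were (0.15 in male 1, 0.15 in female 3, -0.14 in female 1). Those factors were close to 1 (0.996 to 1.01). With equal FPKM sums the median SD within a sex of the abundant members went from 0.12 to 0.077. As a share of the FPKM sum, male 1 (12.1%) remained the highest male library, but female 3 (10.8%) lay under female 2 (11.0%). Whether depth plays a part in these deviations was not tested.

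**Figure D3:**
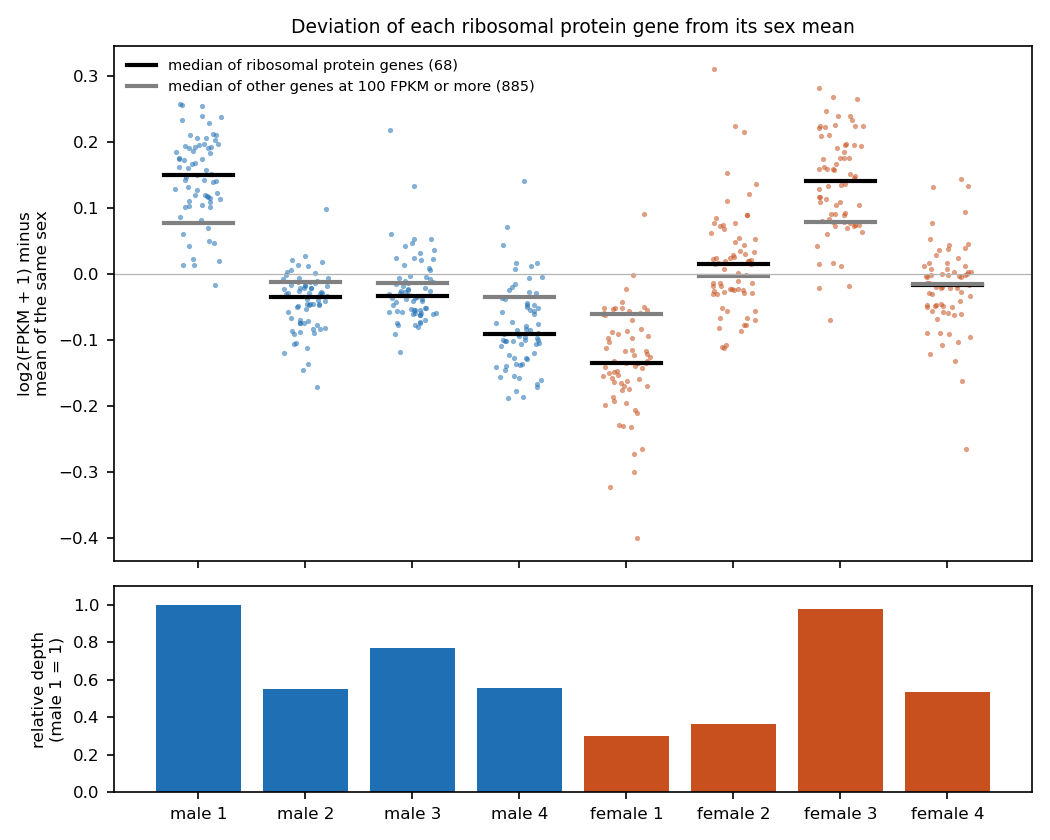
Top, log2(FPKM + 1) minus the mean of the same sex for each of 68 ribosomal protein genes (points) in 8 libraries, with their median (black) and that of 885 other genes at 100 FPKM or more (grey). Bottom, relative depth with male 1 set to 1. Male 1 and female 3 are the highest in both panels and female 1 the lowest.

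Across the 8 libraries, after subtraction of the sex means, the median correlation between 2 abundant members was 0.78, with 97.7% of pairs above 0. It was 0.24 between other genes at 100 FPKM or more and -0.00049 between all other tested genes. These values describe genes that share libraries and depth, over 8 points. The order of the genes was close to fixed, with a Spearman correlation across the 68 rows of 0.977 to 0.994 over the 28 pairs of libraries. The median SD within a sex on the log2 scale was 0.12 for the 68 abundant members and 0.11 for the 885 other genes at 100 FPKM or more. That floor does not match the sets in level. With equal FPKM sums the order turned, at 0.077 for the abundant members and 0.096 for the other genes. Over all tested rows without rescaling, low genes included, the median SD was 0.13 for members and 0.18 for all tested genes. Without male 1 and female 3, left out after the data were seen, it was 0.073 for abundant members and 0.077 for the other abundant genes.

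Dividing each library by its own median over the abundant members removed much of this shared movement. The median coefficient of variation over 8 libraries went from 8.73% to 4.85%, and rows under 5% went from 5 to 34 of 68. The median SD within a sex went to 0.067 for the abundant members and 0.099 for the other genes at 100 FPKM or more. The scale is built from the members themselves, so a smaller spread among them follows in part from its construction.

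The steadiest member was Rps14, a small subunit platform protein, at 667, 595, 633 and 629 FPKM in the male and 592, 636, 622 and 618 FPKM in the female libraries (SD within a sex 0.057). Rpl3 (0.061) and Rpl4 (0.063) of the large subunit and Rps18 (0.064) and Rps29 (0.072) of the small subunit followed. At the other end Rplp2 (1.40), Rpl39l (0.51), the lower Rpl32 row (0.48), Rps19 (0.48) and Rps4y2 (0.39) varied most. The variable rows had means from 1.41 FPKM (Rpl39l) to 11.7 FPKM (Rpl32), and the steady ones from 624 FPKM (Rps14) to 1684 FPKM (Rps29).

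No ribosomal protein gene differed between male and female cultures past the threshold of an adjusted p of 0.05. The test was limma-trend on log2(FPKM + 1), with Benjamini-Hochberg adjustment across the 11263 tested genes. Differences are male minus female. Of the tested members 0 of 79 were called, against 6.04% of all tested genes (680, of which 354 or 3.14% were higher in male cultures and 326 or 2.89% in female ones). At an unadjusted p under 0.05 there were 6 members (7.59%) against 21.2% of all tested genes. All 4 libraries of a sex lay above all 4 of the other in 2 members (2.53%) against 14.0% of all. Among the 885 other genes at 100 FPKM or more, 12.8% were called. The count of 0 became 1 without female 2 (Rps27l) and 1 without female 3 (Rpl17).

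The differences were small as well as uncalled. The median was 0.0078 on the log2 scale, with 46 members positive and 33 negative, against -0.0038 for all tested genes. It was -0.0085 for the large subunit (22 positive, 25 negative) and 0.030 for the small subunit (24 positive, 8 negative). The standard error was 0.080 at the median abundant row. For 67 of the 68 abundant rows the 95% confidence interval lay inside a 1.5-fold change either way, and for 59 inside a 1.25-fold change. Rps27l was the row that reached past 1.5-fold. Microglia markers, OPC markers, some neuron markers and the mitochondrial share differed between the same groups, with the values above. Their part in these differences was not tested.

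This count depends on the scale. With every library set to the same FPKM sum, 6 members were called, all higher in male cultures: Rpl17, Rps10, Rps10l1, Rps27, Rps27l and Rps3a, of which Rps10 and Rps3a are named after their values were seen. The background on that scale was 8.51% of tested genes, split into 767 with higher male and 192 with higher female levels. The median of all tested genes was 0.069. Of the members 70 were positive and 9 negative there, with a median of 0.089. The sexes did not overlap in 16 members (20.3%) on that scale, against 15.1% of all tested genes, which turns the relation to the background seen without rescaling. Under other settings 1 or 2 members were called. With quantile normalization they were Rpl17 and Rpl13a (2, background 6.35%), as with the sum of nuclear genes as scale (2, background 5.77%). Rpl17 was called without male 1 and female 3 (1, background 7.81%), Rpl13a with relative depth as a covariate (1, background 3.26%) and Rps27l when a mean of at least 5 FPKM was required (1, background 8.25%).

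**Figure D4:**
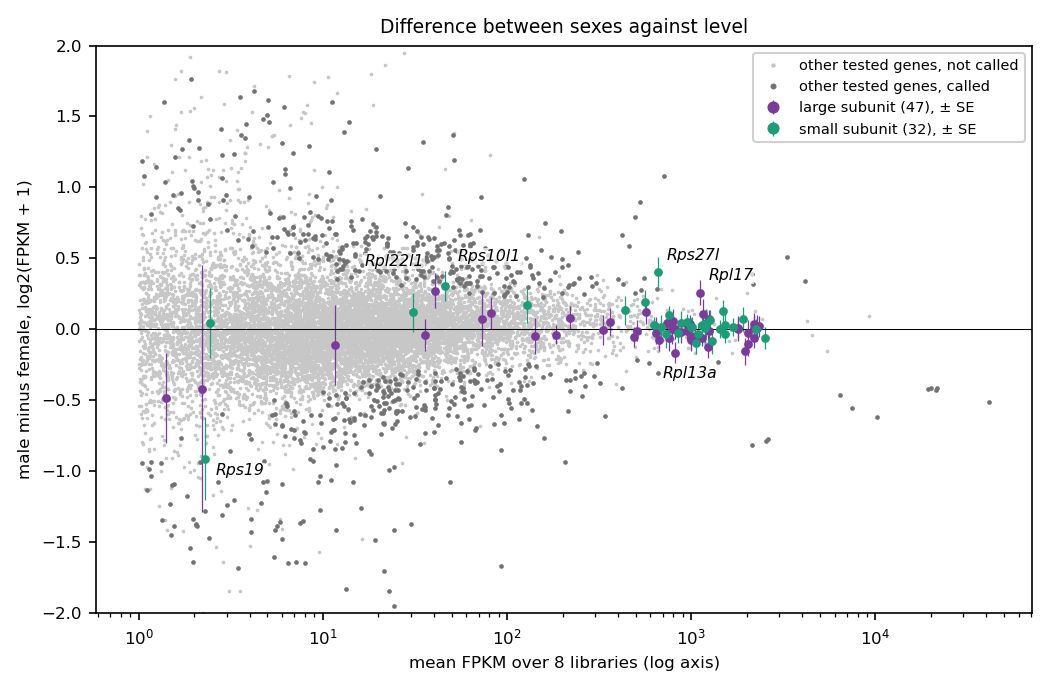
Difference between the sexes (male minus female, log2(FPKM + 1)) against mean FPKM (log axis) for 47 large and 32 small subunit rows, with bars of 1 SE, and for the other tested genes in grey, darker where called. The difference axis ends at 2 either way and leaves out 25 genes, none a member. The abundant members lie in a narrow band around 0, with Rps27l and Rpl17 above it.

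The smallest p belonged to Rps27l, which encodes a close relative of the small subunit protein Rps27 that is also known as a p53 target. It was at 769.7, 734, 717 and 771 FPKM in the male libraries and at 452, 701, 594 and 541 FPKM in the female libraries. Every male library was above every female one, and the female libraries were the more spread. The difference was 0.40 ± 0.11 (SE) with a limma adjusted p of 0.0562. Rps27 itself was at 1738, 1536, 1461 and 1503 FPKM in the male and 1269, 1401, 1535 and 1502 FPKM in the female libraries, and the sexes overlapped (0.13 ± 0.077, adjusted p = 0.38).

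Rpl17, which lines the polypeptide exit tunnel of the large subunit, was at 1378, 1155, 1203 and 1131 FPKM in the male and at 897, 1004, 1171 and 998 FPKM in the female libraries. The sexes overlapped through female 3, the highest female library (0.26 ± 0.088, adjusted p = 0.116). Rpl13a, known for its part in silencing inflammatory mRNAs, ran the other way, at 849, 726, 769 and 747 FPKM in male and 795, 826, 958 and 888 FPKM in female libraries (-0.16 ± 0.074, adjusted p = 0.232). Here male 1 lay within the female range. Rps19, the gene most often mutated in Diamond-Blackfan anemia, was at 0.542, 1.96, 0.705 and 1.94 FPKM in male and 5.41, 2.96, 2.73 and 2.02 FPKM in female libraries on its higher row (-0.91 ± 0.29, adjusted p = 0.0964). Its female values were all above its male ones, at a level far under that of other ribosomal protein genes.

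With each library divided by its median over the abundant members, a scale added after the data were seen, 2 members were called, against 4.52% of all tested genes. On this scale Rpl17 was at 1.27, 1.19, 1.22 and 1.18 times the median in male and 0.968, 0.988, 1.08 and 1.04 times in female libraries. The groups no longer overlapped, and the difference was 0.25 ± 0.045 (limma adjusted p = 0.00725). Rps27l was at 0.708, 0.755, 0.726 and 0.803 times in male and 0.487, 0.690, 0.546 and 0.564 times in female libraries (0.40 ± 0.091, adjusted p = 0.0332). Rpl13a was at 0.781, 0.747, 0.779 and 0.778 times in male and 0.857, 0.813, 0.880 and 0.925 times in female libraries, without overlap (-0.17 ± 0.047, adjusted p = 0.0591). Groups did not overlap in 7.59% of the members and 11.1% of all tested genes on this scale.

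**Figure D5:**
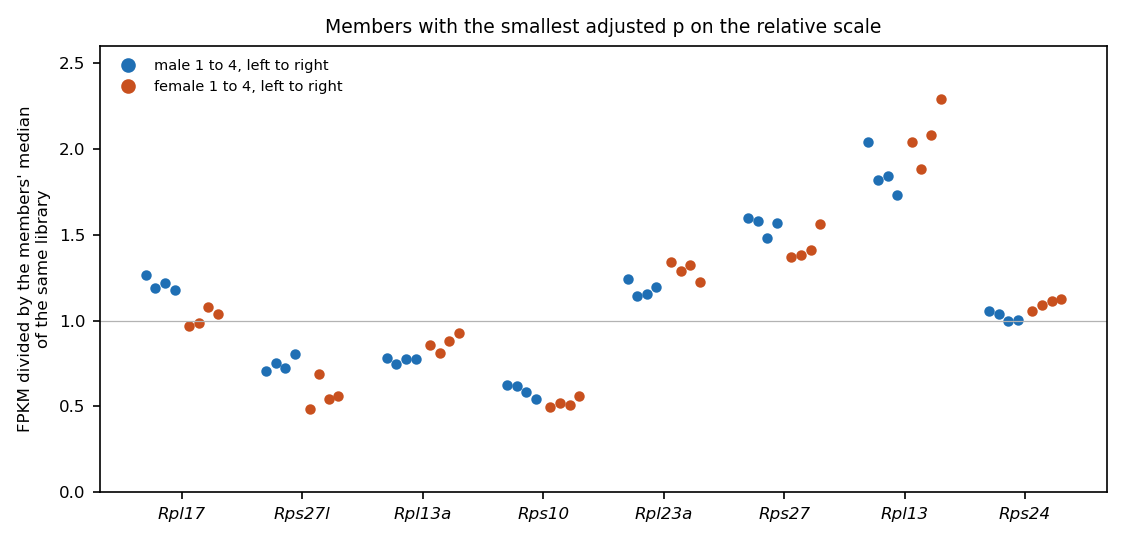
FPKM divided by the median of the abundant ribosomal protein genes of the same library, for the 8 members with the smallest adjusted p on that scale, with male 1 to 4 and female 1 to 4 from left to right in each gene. Rpl17 is at 1.18 or more in all male libraries and 1.08 or less in all female ones.

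By place in the ribosome, no group held a called member in the limma test. Of the P stalk, Rplp0 was at 2139 against 2228 FPKM (male against female mean), and the median difference over 4 rows was -0.040. The row of Rplp2 was above 0 in 4 of 8 libraries, at up to 8.59 FPKM. The 5S particle genes Rpl5 and Rpl11 had a median of -0.021. The 8 tested genes that line or surround the exit tunnel had a median of 0.023, from -0.12 to 0.26 (Rpl17). The 15 tested rows of the head of the small subunit had a median of 0.018, with 10 positive and 5 negative.

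Among the relatives of standard ribosomal proteins that the symbol pattern takes, most were rare. Rps27l, at a mean of 660.01 FPKM, was the exception. Rpl22l1, a relative of Rpl22 with its own roles in development, was at 40.3, 44.1, 45.3 and 48.1 FPKM in male and 28.1, 43.6, 35.6 and 40.8 FPKM in female libraries. The sexes overlapped (0.27 ± 0.12, limma adjusted p = 0.234), while Rpl22 was at 737 ± 78.0 against 769 ± 83.6 FPKM (adjusted p = 0.763). Rps10l1 was at 55.2, 56.2, 43.6 and 49.4 FPKM in male and 35.2, 41.8, 47.2 and 40.5 FPKM in female libraries (0.31 ± 0.11, adjusted p = 0.126). Its parent Rps10 was at 596 ± 65.9 against 521 ± 41.7 FPKM (adjusted p = 0.238). Rpl7l1 (84.3 against 78.6 FPKM), a factor of large subunit assembly, differed by 0.12 (adjusted p = 0.61). Rpl39l, the testis relative of Rpl39, had a mean of 1.41 FPKM against 488 FPKM for Rpl39, and Rps4y2 one of 2.45 FPKM against 1304 FPKM for Rps4x. Reads of a relative or copy can come from its parent gene, so these low rows are uncertain.

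Small subunit proteins outside the symbol pattern were not called either (limma). Fau, whose product is cut to release a small subunit protein, was at 686 against 690.3 FPKM (adjusted p = 0.946). Rack1, a signalling scaffold on the small subunit, was at 1013 against 1037 FPKM (adjusted p = 0.851).

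Genes of ribosome biogenesis, which make and modify rRNA and assemble the subunits, were not called either, in 0 of 97 tested genes of 103 listed, with 9 at an unadjusted p under 0.05 (limma, background 6.04%). Their median difference was -0.013. In the 4 genes with the smallest p the male mean was the higher, while for Polr1d, a subunit of RNA polymerases I and III, next in order and named after its values were seen, it was the lower (68.3 against 85.2 FPKM, limma adjusted p = 0.115). Dkc1, the pseudouridine synthase of box H/ACA particles, was at 60.2 ± 2.54 against 49.7 ± 3.41 FPKM (0.27 ± 0.073, adjusted p = 0.0507). Its partner Gar1 was at 38.3 ± 3.41 against 29.0 ± 4.55 FPKM (0.40 ± 0.12, adjusted p = 0.0726), and Fbl, the rRNA methyltransferase fibrillarin, at 165 ± 17.5 against 133 ± 13.0 FPKM (0.31 ± 0.094, adjusted p = 0.0821). For Emg1, a further rRNA methyltransferase, the adjusted p was 0.109. The count of 0 became 1 without male 1, a gene higher in female cultures. With equal FPKM sums it was 6, all higher in male cultures (background 8.51% of tested genes in either direction). Single calls under other settings went either way.

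Other genes whose mRNAs carry a TOP motif, chiefly translation factors, had negative differences in 16 of 17 tested genes, with a median of -0.089, and 3 were called higher in female cultures (17.6%, against 2.89% of all tested genes in that direction). Pabpc1, the cytoplasmic poly(A)-binding protein, was at 587, 616, 574 and 578 FPKM in male and 723, 724, 730.5 and 736 FPKM in female libraries. The groups were far apart beside their spread (-0.31 ± 0.051, limma adjusted p = 0.00661). Eif4b, a helper of the initiation helicase, was at 148, 134, 135 and 139.5 FPKM in male and 186, 175, 166 and 176 FPKM in female libraries (-0.33 ± 0.062, adjusted p = 0.0109), and with equal FPKM sums its adjusted p was 0.0581. Hnrnpa1, an RNA-binding splicing factor, was at 1288 ± 36.1 against 1513 ± 13.8 FPKM (-0.23 ± 0.050, adjusted p = 0.0212). It lost its call with equal FPKM sums, with quantile normalization and when any of 5 libraries was left out (male 2, 3 or 4, female 2 or 4), with an adjusted p of up to 0.0839. Eef2, the elongation factor that moves the ribosome along the mRNA, was at 1570 ± 55.1 against 1764 ± 33.7 FPKM and was not called (-0.17 ± 0.052, adjusted p = 0.0841). Of the list, 5 genes were called without male 1. With equal FPKM sums 2 were called, 1 higher in male and 1 in female cultures. The difference between this list and the ribosomal protein genes was not tested.

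Regulators of ribosome production and TOP mRNA translation were called in 2 of 11 genes (18.2%, against 6.04% of all tested genes), both higher in female cultures (background 2.89%) and both named after their values were seen. Mxd4, a Max partner that opposes Myc, was at 48.6 ± 2.95 against 68.8 ± 6.28 FPKM (-0.49 ± 0.081, limma adjusted p = 0.00661). Myc, a transcription factor that drives ribosome production, was at 54.4 ± 7.19 against 75.3 ± 6.80 FPKM (-0.47 ± 0.099, adjusted p = 0.0209). Myc lost its call when any of 5 libraries was left out (male 2, 3 or 4, female 1 or 4) or when depth entered the fit, with an adjusted p of up to 0.0678. Microglia and OPC markers were higher in female libraries beside these differences too, and their part was not tested.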

How the data were processed

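RNA-seq of 8 rat OPC cultures, 4 male and 4 female, was grouped by the sex in the sample titles. The authors deposited 1 FPKM value per gene and library, per the file headers. The submitters' processing notes name Trimmomatic and FastQC. Not given in the sources used here are the aligner, build, annotation and strand setting. The FPKM sums of the libraries ran from 648383 to 773919, while their median ratio factors were close to 1 (0.996 to 1.01). The values were thus nearly matched at the median gene and not at the library total. Depth in reads is unknown.

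Genes averaging 1 FPKM or more were tested with limma 3.58.1 (R 4.3.3; trend, robust) on log2(FPKM + 1), male minus female, with Benjamini-Hochberg adjustment and a threshold of 0.05. On this scale the change of low genes is understated. The test was checked on simulated data. Alternatives were other pseudocounts, filters and scalings, a replicate block, relative depth as a covariate and each library left out, and 4 more were added after the data were seen. The members and gene lists were chosen with earlier results of these data known. Members are named for the smallest p, the highest and lowest means, and the largest and smallest spread (5 each), for a mean under 1 FPKM, or from a fixed set. A gene of that set, and an alternative that used it, are not reported here. In the biogenesis and TOP lists the 4 smallest p are named. Promoter sequences are RefSeq (GRCr8), 250 bases before to 50 after each start, and were searched 25 bases either side of it.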

Additional observations from a re-analysis of the deposited data

Results flagged for a closer look

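In each sex the highest or lowest of 4 libraries was compared with the other 3, for the tested rows of the genes named and for the shares, 116 groups in all. In 10 of them a library stood apart by Dixon's criterion, which chance alone meets in about 1 in 20 groups, and in 7 of the 10 that library was male 1. The groups are not independent, because members move together within a library and the shares contain one another. The count of 10 therefore cannot be set against that rate. Male 1 was at 1042 FPKM for Rpl4 against 945.4 to 953.7 in the other male libraries. It was at 1007 FPKM for Rpl12 against 822.5 to 841.8, and at 1224 FPKM for Rpl3 against 1078 to 1102. For Rps3a it was at 831.7 FPKM against 767.1 to 769.5. The ribosomal protein share of summed FPKM was 12.08% in male 1 and 11.06 to 11.14% in the other male libraries. Its large subunit part was 7.082% against 6.371 to 6.444%, and its small subunit part 5.001% against 4.686 to 4.739%. Male 1 was also the deepest library. Male 2 was low for the higher row of Rps27a, at 972.0 FPKM against 1010 to 1018 in the other male libraries. Among female libraries, female 3 was at 697.9 FPKM for Rpl26 against 615.7 to 624.9. Female 1, the lowest female library for most members, was at 33.45 FPKM for the lower row of Rps4x against 28.04 to 28.3.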

How the results depend on the processing

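The median difference of the ribosomal protein genes (0.0078) ran from -0.068 (depth covariate) to 0.089 (equal FPKM sums). Without rescaling, the SD of their median level between cultures of a sex was 0.11. That SD was not computed with equal FPKM sums, and as an SD of single libraries it does not measure a difference between group means. The members' median spread (0.13) was 0.065 with quantile normalization and 0.14 at most. The count of called members stayed at 0 with the other pseudocounts and without a filter. It also did with median ratio scaling, which nearly repeats the main fit because its factors were close to 1 (0.996 to 1.01). That count was 1 with a mean of at least 5 FPKM, 6 with equal FPKM sums, 2 with quantile normalization, 1 with relative depth as a covariate, 1 without male 1 and female 3, 2 with the sum of nuclear genes as scale and 2 with the members' median as scale, and it ran from 0 to 1 with each library left out. The genes behind these counts were Rps27l, Rpl17 and Rpl13a, with 4 others under equal FPKM sums only. For ribosome biogenesis the count of 0 became 6 with equal FPKM sums, 1 with a mean of at least 5 FPKM, 1 with median ratio scaling, 1 with quantile normalization, 1 with relative depth, 1 without male 1 and female 3, 1 with the nuclear sum, 1 with the members' median, and ran from 0 to 1 with each library left out. For other TOP mRNA genes the count of 3 became 6 with relative depth, 5 without male 1 and female 3 and 6 with the nuclear sum, was 2 with equal FPKM sums (1 higher in each sex), and ran from 2 to 5 with each library left out. Without mitochondrially encoded genes the differences in share were -0.26 (large) and -0.040 (small) percentage points. The subunit ratio of 0.846 was 1.39 as a ratio of sums and 0.890 without relatives. The cause of these changes was not tested. For 46 named genes, 865 of 916 values kept their side of the threshold or moved within their spread, 15 lost and 26 gained a call, 10 moved beyond their spread and 0 called values reversed. Of 790 values called in neither fit, 86 changed sign.

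With the replicate number as a block, 0 members, 0 biogenesis genes and 2 other TOP mRNA genes were called, 397 genes in all against 680, the adjusted p of Hnrnpa1 was 0.115, and the median difference of the members was 0.0078. Deviations of same-numbered libraries had correlations from -0.085 to 0.077. The labels do not say what the number stands for, and these values cannot show whether same-numbered cultures share an origin. Depth in reads is unknown, and no interval from counts can be given.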

Other observations

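Genes whose loss of 1 copy causes Diamond-Blackfan anemia, an inherited failure of red cell production, gave 16 tested rows, of which 0 were called (limma, background 6.04%), with 1 at an unadjusted p under 0.05 (background 21.2%). Their median difference was 0.025, with 11 positive and 5 negative, from -0.91 (Rps19) to 0.19 (Rps10), and their median SD within a sex was 0.12. The Rps19 row, also the 1 at an unadjusted p under 0.05, had a mean of 2.28 FPKM only. Of the 18 genes of this list 17 had a row, and Rpl35a was listed at 0.

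Rows that share a symbol lay far apart in level. Rpl32 had rows at means of 991 and 11.7 FPKM, Rps4x at 1304 and 31.1 FPKM, and Rps27a at 999 and 128 FPKM. The lower rows were the more variable, with an SD within a sex on the log2 scale of 0.48 against 0.14 for Rpl32, 0.23 against 0.15 for Rps4x and 0.22 against 0.084 for Rps27a.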
